A study of Homo sapiens with 8 samples.

Results

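A set of 10 genes of the intermediate filament family was followed through long-read RNA libraries of human cells: the keratins KRT7, KRT8, KRT10, KRT17, KRT18 and KRT19, vimentin (VIM), nestin (NES), and the nuclear lamin genes LMNA and LMNB1. They were taken by name from the combined transcript assembly, and a transcript counted for a gene only where the assembly itself names it for that gene. They held 30 of the 96614 transcripts of that assembly, which names 20195 genes in all. Every culture derives from H1, a long-established line of human embryonic stem cells, so the groups share 1 genetic background. The 4 groups were undifferentiated human pluripotent stem cells (hPSC) kept in mTeSR1 on Matrigel, and 3 cultures in which those cells were driven toward a germ layer for 5 days. Endoderm cultures received WNT3A and 100 ng/ml Activin A. Mesoderm cultures received 100 ng/ml VEGF, 100 ng/ml BMP4 and 10 ng/ml bFGF, with 100 ng/ml Activin A for the opening 24 hours. Ectoderm cultures received the inhibitors A83-01, PNU-74654 and Dorsomorphin at 2 µM each. Each group had 2 libraries. The labels call them repeats without saying whether they are separate cultures, so p-values measure the spread between these libraries, which may be technical.

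Intermediate filaments are rope-like polymers built from proteins that share a central helical rod. Keratins assemble only as pairs of a type II chain (KRT7, KRT8) with a type I chain (KRT10, KRT17, KRT18, KRT19), and KRT8 with KRT18 is the pair of simple epithelia and of the early embryo. Vimentin is the type III filament of mesenchymal cells, and nestin is best known from neural progenitors. Lamins line the inner face of the nuclear envelope: LMNB1 encodes a B-type lamin, while LMNA encodes lamin A and lamin C through a choice of 3′ exons, and A-type lamins are known to be scarce in pluripotent cells.

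The members can be set side by side in the coding sequence at the end of the rod, where the conserved helix termination motif lies. Below are 24 bases of 9 of the genes from that point, found by a search for that motif in the translated coding sequences of GENCODE 29 (GRCh38), with 1 match in each. Capitals mark the bases that equal those of KRT8 at the same place.
KRT8: TACAGGAAGCTGCTGGAGGGCGAG
KRT7: TACcGcAAGCTGCTGGAGGGCGAG
KRT18: TACcGccgcCTGCTGGAaGatGgc
KRT19: TACcGcAgcCTGCTcGAGGGacAG
KRT17: TACcGccgcCTGCTGGAGGGaGAG
KRT10: TACcGcAgcCTGCTaGAaGGaGAG
VIM: TACAGGAAGCTGCTGGAaGGCGAG
NES: TACAGGAccCTcCTGGAGGctGAG
LMNB1: TACAGGAAaCTctTaGAaGGCGAa
VIM shares 23 of the 24 bases with KRT8, KRT7 shares 22, and KRT18, the partner of KRT8, shares 14. Part of this sharing was set by the search, which required some of the amino acids.

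The libraries held from 503840 to 1180888 reads, and the ectoderm libraries were the deepest. Levels below are CPM, the read count scaled by the library total. A count of 0 allowed up to 3 counts, from 2.54 CPM in ectoderm repeat 1 to 5.95 CPM in mesoderm repeat 2, and such limits cover counting error only. The mean transcript length behind a read was 4406 and 4650 nt in ectoderm and 2975 to 3840 nt elsewhere. Across 10847 genes the hPSC repeats correlated less with each other (Pearson r = 0.858, across genes that are not independent) than the repeats of the layers (0.932 to 0.963). Of the marker lists, 7 of 8 ectoderm markers had reads in ectoderm, 3 each in endoderm and mesoderm, and 1 in hPSC. OTX2, on that list, had 181 and 130 reads in ectoderm and 241 and 238 in endoderm. Of 8 endoderm markers, 8 had reads in endoderm, 2 each in ectoderm and mesoderm, and 1 in hPSC. Of 8 pluripotency markers, 4 were called lower in endoderm than in hPSC by the test used below. NANOG (79 and 129 reads in hPSC, 92 and 65 in endoderm) and TDGF1 (524 and 626, 452 and 351) were not. Of 8 mesoderm markers, 5 had reads in mesoderm, 7 in endoderm, and 4 each in hPSC and ectoderm. The summed level of that list was 821 and 800 CPM in mesoderm against 41.4 to 176 CPM elsewhere. In mesoderm HAND1 had 263 and 274 reads and BMP4 165 and 125, whereas TBXT had 1 read and 0 reads, KDR 1 read each and MIXL1 none. KDR had 57 and 44 reads in hPSC and 26 and 22 in endoderm, where MIXL1 had 14 and 23. The mesoderm libraries also held 14 of 16 amnion and trophoblast markers, with CGA at 29 and 33 reads and TP63 at 20 and 13. Of the same 16, 7 had reads in hPSC, 11 in ectoderm and 5 in endoderm. The summed level of that list was 7142 and 7766 CPM in mesoderm against 17.8 to 99.9 CPM in the other libraries. Whether this has a part in the mesoderm results below was not tested.

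With an adjusted p under 0.05, 48.6% of the 10847 genes tested were called between ectoderm and hPSC, 27.1% between endoderm and hPSC, and 35.2% between mesoderm and hPSC. All 3 comparisons share the hPSC libraries. Counting the called genes, 49.0% were higher in ectoderm, 49.5% in endoderm and 48.2% in mesoderm. Scaled by library totals alone, these splits were 66.5%, 31.8% and 59.0%, and the median log2 fold change of all genes moved from -0.01 to 0.39, from -0.13 to -0.46 and from 0.01 to 0.24. Between layers, the share of called genes that was higher moved from 52.5% to 71.7% for ectoderm over endoderm, from 51.2% to 62.3% for ectoderm over mesoderm and from 49.3% to 28.1% for endoderm over mesoderm. Fold changes below are relative to the composition-scaled (TMM) libraries.

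Of the 10 genes, 8 passed the filter on low counts, while KRT10 and KRT17 did not. In ectoderm 6 of the 8 were lower than in hPSC and none was higher, where 24.8% of all tested genes were lower. In endoderm 5 were higher and 1 was lower, where 13.4% of all genes were higher and 13.7% lower. In mesoderm 6 were higher and none was lower, where 17% of all genes were higher and 18.2% lower. KRT8, KRT18, KRT19, VIM and LMNA were thus called in all 3 comparisons, lower in ectoderm and higher in endoderm and in mesoderm. In bulk RNA, fewer cells of a type and less RNA per cell cannot be told apart.

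**Figure D1:**
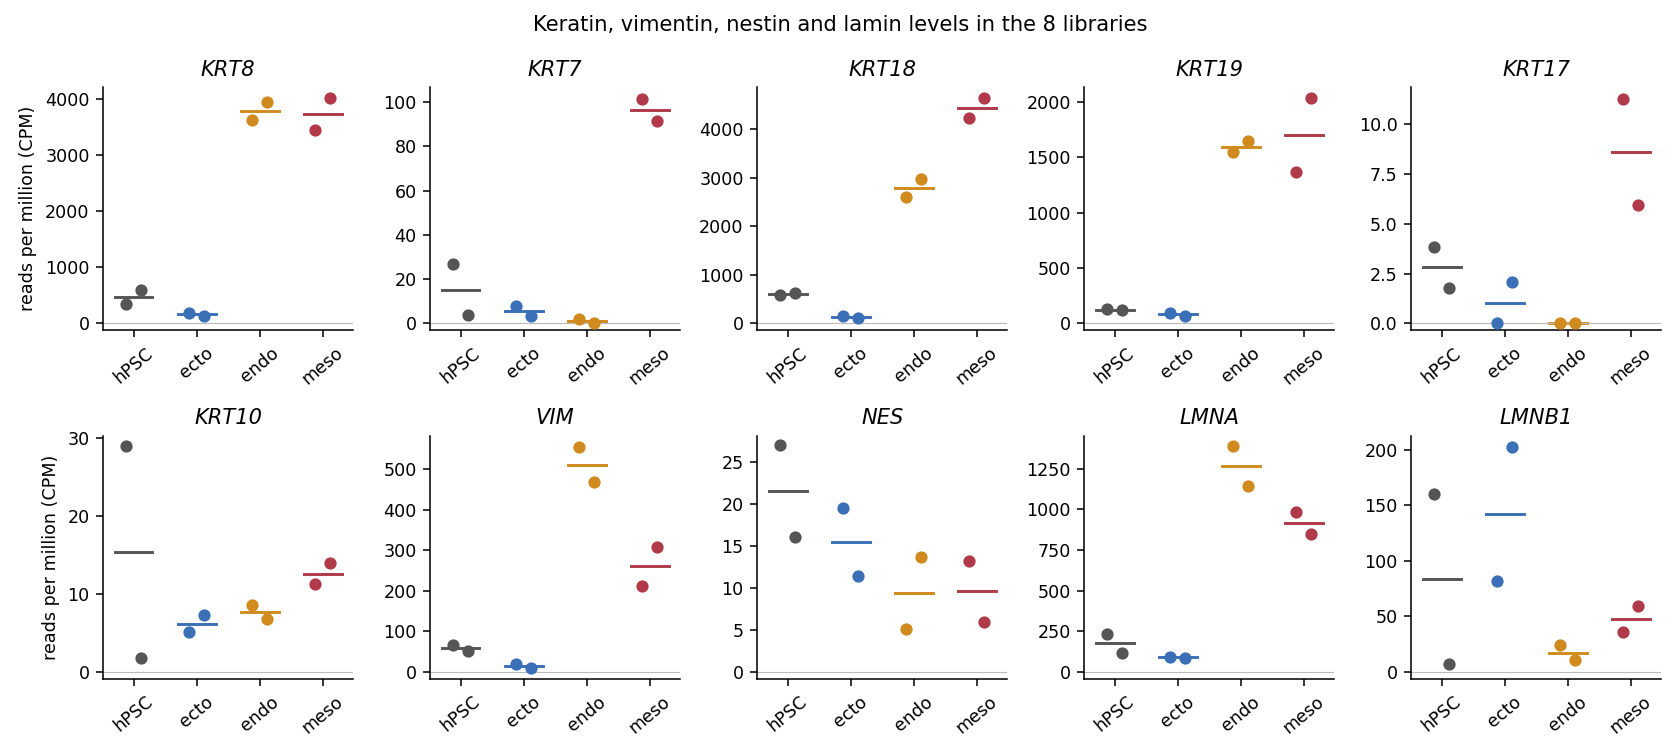
CPM (y axis, linear, own scale per gene) of the 10 genes in each group (x axis), with a point per library and a bar at the mean of 2 libraries. KRT8, KRT18, KRT19, VIM and LMNA stand high in endoderm and mesoderm and low in ectoderm, KRT7 stands high in mesoderm (102 and 91.3 CPM), and the hPSC repeats of LMNB1 lie at 160 and 7.12 CPM.

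KRT8 and KRT18, the simple epithelial pair, moved in the same direction in each layer. KRT8 (chr12:52897181-52949898, reverse strand) had 349 and 587 CPM in hPSC, 191 and 131 CPM for ectoderm, 3615 and 3942 CPM for endoderm, and 3451 and 4013 CPM for mesoderm. Its ectoderm libraries both lay below hPSC, and those of endoderm and mesoderm lay above it by a wide margin and overlapped each other. KRT8 fell by 2.01 on the log2 scale in ectoderm (SE 0.39, adjusted p = 0.000827), and its log2 fold change was 3.30 ± 0.41 in endoderm (SE, adjusted p = 3.29e-05) and 2.71 ± 0.40 in mesoderm (adjusted p = 0.000101). Without hPSC repeat 2 these values were -1.37, 3.94 and 3.35, and with a trend on transcript length removed the ectoderm value was -1.13 (adjusted p = 0.0236).

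KRT18 (chr12:52948871-52952906, forward strand) had 589 and 632 CPM in hPSC, 153 and 113 for ectoderm, 2598 and 2968 for endoderm, and 4227 and 4644 for mesoderm. No 2 groups overlapped. The log2 fold change against hPSC was -2.63 ± 0.35 in ectoderm (SE, adjusted p = 4.47e-05), 2.51 ± 0.34 in endoderm (adjusted p = 8.15e-05) and 2.61 ± 0.34 in mesoderm (adjusted p = 4.15e-05). With the length trend removed, the ectoderm value was -1.58 (adjusted p = 0.0014). KRT18 was 1 of the genes with many near-identical copies: GENCODE 29 names 68 KRT18 pseudogenes, of which 6 had reads, and 50 for KRT8, of which 5 had reads. The KRT18 copies held 69 and 75 reads in the ectoderm libraries beside 181 and 109 reads of KRT18 itself, and 5 to 24 reads in each of the other libraries. How reads that fit several copies were counted is not given in the sources used here, so the level of KRT8 and KRT18 in ectoderm is uncertain to that extent. The genes also lie head to head on opposite strands: the long form of KRT8, which starts upstream, shares 135 bases with KRT18 exons, and whether counting used strand is not given in the sources used here.

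KRT19, the smallest keratin and a type I chain of simple and ductal epithelia, had the largest fitted rise of the tested keratins in endoderm. It had a single assembled transcript (chr17:41523610-41528308, reverse strand), which matched the reference. Its level was 131 and 117 CPM in hPSC, 94.8 and 67.2 for ectoderm, 1547 and 1645 for endoderm, and 1369 and 2036 for mesoderm. Endoderm lay between the mesoderm repeats, and both ectoderm libraries lay below both of hPSC. The log2 fold change was 4.02 ± 0.36 in endoderm (SE, adjusted p = 2.05e-06) and 3.54 ± 0.36 in mesoderm (adjusted p = 2.71e-06). In ectoderm it was -1.03 ± 0.35 (adjusted p = 0.0221). That call was lost when the fit was restricted to the 4 libraries (-0.94, adjusted p = 0.0539), without the low-count filter (-0.82, adjusted p = 0.0589), with library totals (-0.61, adjusted p = 0.102), without ectoderm repeat 2 (-0.81, adjusted p = 0.195) and with the length trend removed (0.02, adjusted p = 0.975).

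KRT7, a type II keratin of glandular and ductal epithelia and of trophoblast and amnion, was the member that set the mesoderm cultures apart. It had 14 and 2 reads in hPSC, 9 and 3 for ectoderm, 1 and 0 for endoderm, and 54 and 46 for mesoderm. That is 27.0 and 3.56 CPM, 7.62 and 3.10 CPM, 1.71 and 0 CPM, and 102 and 91.3 CPM. The mesoderm libraries lay above all others, and the ectoderm and hPSC libraries overlapped. KRT7 rose in mesoderm, with a log2 fold change of 2.48 ± 0.50 against hPSC (SE, adjusted p = 0.0015). That value was 4.31 without hPSC repeat 1 and 1.76 without hPSC repeat 2, and the call held in both. The amnion and trophoblast markers named above moved with it: 12 of 12 tested were higher in mesoderm than in hPSC. Many of them passed the low-count filter through their mesoderm reads. CGA had 29 and 33 reads there and none elsewhere, and VTCN1 had 194 and 184 there and at most 2 in any other library. For such genes the filter nearly set the direction of a call, so the 17% of all genes that were higher is not a like comparison. KRT7 also had most of its reads in mesoderm. The part of these markers in the KRT7 result was not tested. Below hPSC the counts are thin. Pooled over repeats, KRT7 was 17.3-fold lower in endoderm, with a 95% exact conditional binomial interval of 2.69 to 727 that covers counting error only. Its call in endoderm (adjusted p = 0.0362) was lost without hPSC repeat 1 (log2 fold change -1.75, adjusted p = 0.459), without endoderm repeat 1 (-6.57, adjusted p = 0.0873) and without endoderm repeat 2 (-2.72, adjusted p = 0.203), and held without hPSC repeat 2 (-4.30). In ectoderm the log2 fold change was -1.78 ± 0.70 (adjusted p = 0.0444), and it was 0.06 (adjusted p = 0.973) without hPSC repeat 1, -1.33 (adjusted p = 0.203) without ectoderm repeat 2, -2.49 without hPSC repeat 2 and -2.56 without ectoderm repeat 1. Its call there was lost under 6 further settings (adjusted p from 0.0511 to 0.311), and that in endoderm with DESeq2 (0.101) and with all transcripts listed under the gene (0.0537).

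KRT10, a keratin of the upper epidermis, and KRT17, a keratin of basal cells and skin appendages, were close to the limit of detection. KRT10 had 15 and 1 reads in hPSC, 6 and 7 for ectoderm, 5 and 4 for endoderm, and 6 and 7 for mesoderm. Its 2 assembled transcripts covered 637 and 599 nt at the 3′ end of the gene (chr17:40818115-40819097, reverse strand), and neither matched a reference transcript. KRT17 (chr17:41619439-41624575, reverse strand) had 2 and 1 reads in hPSC, 0 and 2 for ectoderm, none for endoderm, and 6 and 3 for mesoderm. Against the 0 reads of endoderm, mesoderm was at least 3.40-fold higher, taking 3 counts over the endoderm group as the floor. The 9 mesoderm reads against the 3 of hPSC gave a ratio of 3.13 with a 95% interval of 0.782 to 18.0, which includes no difference. Other keratins were nearly silent. Among 23 further type II keratin genes only KRT80 had reads, with 5 and 7 in mesoderm and at most 1 in any other library. Among 25 further type I genes only KRT15, KRT23 and KRT222 had reads, KRT23 with 5 and 7 in mesoderm and none elsewhere. These 4 genes are named because so few had reads, and none was tested.

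VIM (chr10:17228241-17237593, forward strand), the mesenchymal filament, was highest in endoderm. Its level was 65.5 and 51.6 CPM in hPSC, 18.6 and 10.3 for ectoderm, 555 and 467 for endoderm, and 213 and 308 for mesoderm. No 2 groups overlapped. The log2 fold change was -2.39 ± 0.40 in ectoderm (SE, adjusted p = 0.00024), 3.47 ± 0.35 in endoderm (adjusted p = 5.73e-06) and 1.92 ± 0.34 in mesoderm (adjusted p = 0.000579). With the length trend removed the ectoderm value was -1.65 (adjusted p = 0.00376). VIM and the keratins of simple epithelia therefore stood high in the same 2 cultures.

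NES (chr1:156668763-156677407, reverse strand) did not pass the test in any comparison. It had 14 and 9 reads in hPSC, 23 and 11 for ectoderm, 3 and 8 for endoderm, and 7 and 3 for mesoderm, which is 27.0 and 16.0 CPM, 19.5 and 11.4 CPM, 5.12 and 13.6 CPM, and 13.2 and 5.95 CPM. The ectoderm libraries overlapped those of hPSC, and the endoderm and mesoderm libraries lay below them. The log2 fold change was -0.85 ± 0.49 in ectoderm (SE, adjusted p = 0.166), -0.83 ± 0.60 in endoderm (adjusted p = 0.340) and -1.35 ± 0.61 in mesoderm (adjusted p = 0.0985). These differences did not pass the test, which does not show that NES was unchanged. Under 1 of 12 alternatives NES was called lower in ectoderm than in hPSC, and the log2 fold change ran from -1.31 to -0.44 over them. Of 11 further filament genes of types III, IV and VI, with LMNB2 counted among them, 10 had reads and 2 were tested. NEFL, the light neurofilament chain, had 38 and 43 reads in hPSC, 21 and 12 for ectoderm, 12 and 14 for endoderm, and 0 and 2 for mesoderm. It fell in all 3 layers, with log2 fold changes of -2.71 ± 0.39, -1.42 ± 0.40 and -5.38 ± 0.64 (SE, adjusted p = 7.45e-05, 0.017 and 1.49e-05).

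**Figure D2:**
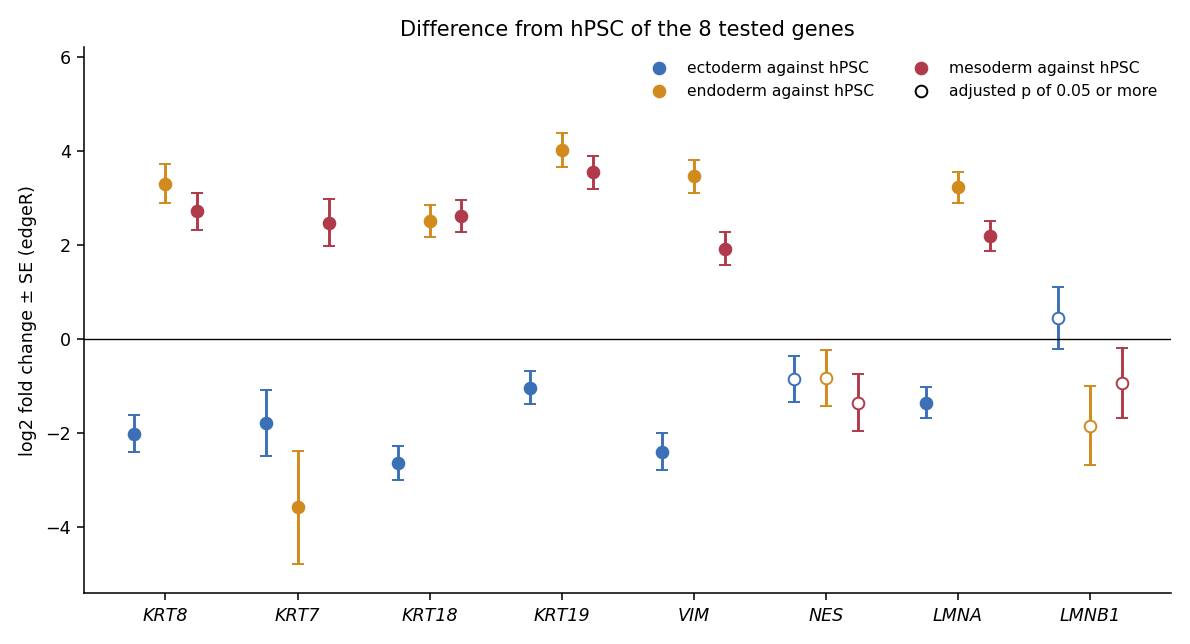
Log2 fold change against hPSC with its SE (y axis) of the 8 tested genes (x axis), coloured by layer, with open points where the adjusted p was 0.05 or more. KRT8, KRT18, KRT19, VIM and LMNA lie below 0 in ectoderm (-2.63 to -1.03) and above 0 in endoderm (2.51 to 4.02) and mesoderm (1.92 to 3.54), and NES and LMNB1 have open points only.

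LMNA (chr1:156082590-156140081, forward strand) followed the keratins. It had 233 and 117 CPM in hPSC, 93.2 and 85.8 for ectoderm, 1387 and 1141 for endoderm, and 983 and 847 for mesoderm. No 2 groups overlapped, and the hPSC repeats differed more than those of any layer in proportion. The log2 fold change was 3.22 ± 0.33 in endoderm (SE, adjusted p = 6.89e-06), 2.19 ± 0.32 in mesoderm (adjusted p = 0.000109) and -1.35 ± 0.33 in ectoderm (adjusted p = 0.00351). Counted from its spliced transcripts alone, a choice made after the data were seen, LMNA had 67.7 and 53.8 CPM in ectoderm and a log2 fold change there of -1.82 (adjusted p = 0.000535). From transcripts that match the reference alone it was -2.20 (adjusted p = 0.000615). Both choices gave a larger fall than the main fit, and over all 14 alternatives the ectoderm value ran from -2.20 to -0.96.

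LMNB1 (chr5:126777126-126837020, forward strand) did not pass the test in any layer against hPSC, and here 1 hPSC library decides the direction. It had 83 and 4 reads in the hPSC repeats, 97 and 196 for ectoderm, 14 and 6 for endoderm, and 19 and 30 for mesoderm. In CPM this is 160 and 7.12, 82.1 and 203, 23.9 and 10.2, and 35.8 and 59.5, so the hPSC libraries span every other group except the upper ectoderm repeat. The log2 fold change was 0.45 ± 0.65 in ectoderm (SE, adjusted p = 0.591), -1.84 ± 0.84 in endoderm (adjusted p = 0.118) and -0.93 ± 0.74 in mesoderm (adjusted p = 0.345). Without hPSC repeat 1 these were 3.69 (adjusted p = 4.27e-05), 1.42 (adjusted p = 0.282) and 2.32 (adjusted p = 0.0207). Without hPSC repeat 2 they were -0.45 (adjusted p = 0.308), -2.72 (adjusted p = 4.76e-05) and -1.82 (adjusted p = 0.00107). The other B-type lamin gene, LMNB2, showed a like split in hPSC, with 172 and 35 reads, and had 556 and 517 for ectoderm, 41 and 62 for endoderm, and 188 and 151 for mesoderm. SOX2, a pluripotency factor, had 71 and 5 reads in the same hPSC libraries, while POU5F1 had 372 and 352. LMNB2 was not called against hPSC in any layer.

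The assembled forms of LMNA can be told apart by their last exon, and shares use the read counts deposited for each. Of its 12 assembled transcripts, 8 were spliced and ended as lamin A or lamin C. The lamin C form took 49.1% and 64.1% of those reads in hPSC, 36.3% and 42.3% for ectoderm, 59.3% and 65.0% for endoderm, and 60.0% and 55.1% for mesoderm. The ectoderm libraries lay below the other 6. The lamin C models were 1506 to 2563 nt long and the lamin A models 2465 to 3712 nt. Reads in ectoderm came from longer transcripts in general, as given above, and the part of this in the lamin C share was not tested. The 95% Wilson intervals were 26.6 to 47.2% and 29.9 to 55.8% in ectoderm, from 80 and 52 reads, and 61.2 to 68.6% in endoderm repeat 2, from 640 reads. Over the 4 groups the difference did not pass an exact permutation test (upper tail of F across groups, all 105 ways to split the 8 libraries into pairs). That permutation test gave p = 0.105, and 0.105 adjusted over 3 ratios, and its smallest possible p is 0.00952. The group means were 56.6% ± 10.6 (SD, n = 2) in hPSC, 39.3% ± 4.28 for ectoderm, 62.1% ± 4.05 for endoderm, and 57.6% ± 3.40 for mesoderm. These means spanned 22.9 percentage points, and 19.8 to 25.9 over the left-out libraries. On the CPM scale both forms were higher in endoderm and mesoderm than in hPSC. In ectoderm the lamin C form lay below both hPSC libraries, whereas the lamin A form overlapped hPSC, and the summed forms were not tested. The lamin C form had 106 and 72.9 CPM in hPSC, 24.6 and 22.7 for ectoderm, 803 and 710 for endoderm, and 567 and 447 for mesoderm. The lamin A form had 110 and 40.9, 43.2 and 31.0, 552 and 382, and 378 and 363 CPM in the same order.

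The remaining 4 LMNA transcripts were single-exon models that lie for the most part over LMNA introns. They took 27.3% and 37.3% of LMNA reads in ectoderm, 7.44% and 3.03% in hPSC, and 2.34% to 4.45% in endoderm and mesoderm. The ectoderm libraries lay above the other 6 in this share. In CPM the single-exon reads stood at 25.4 and 32.1 in ectoderm, above hPSC (17.3 and 3.56) and below endoderm (32.4 and 49.5) and mesoderm (37.7 in each). The longest, a model of 11620 nt (chr1:156101712-156113331), shares 400 bases with any LMNA exon of GENCODE 29. It had 3 and 0 reads in hPSC, 13 and 17 for ectoderm, 11 and 12 for endoderm, and 9 and 10 for mesoderm. Transcript choice within LMNA was called in ectoderm against hPSC by edgeR's diffSpliceDGE (adjusted p = 0.00566), where 5.63% of 2629 genes were called. Of its 8 tested transcripts only the 11620-nt model was called alone, with a log2 change of 3.38 relative to the rest of the gene (adjusted p = 0.00461). The call for the gene was lost without ectoderm repeat 1 (adjusted p = 0.0702) and without ectoderm repeat 2 (adjusted p = 0.255). The longer transcripts behind ectoderm reads in general, given above, moved with this share, and their part in it was not tested. LMNA was not called in endoderm (adjusted p = 0.946, with 5.06% of genes called) or mesoderm (adjusted p = 0.936, with 7% called).

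**Figure D3:**
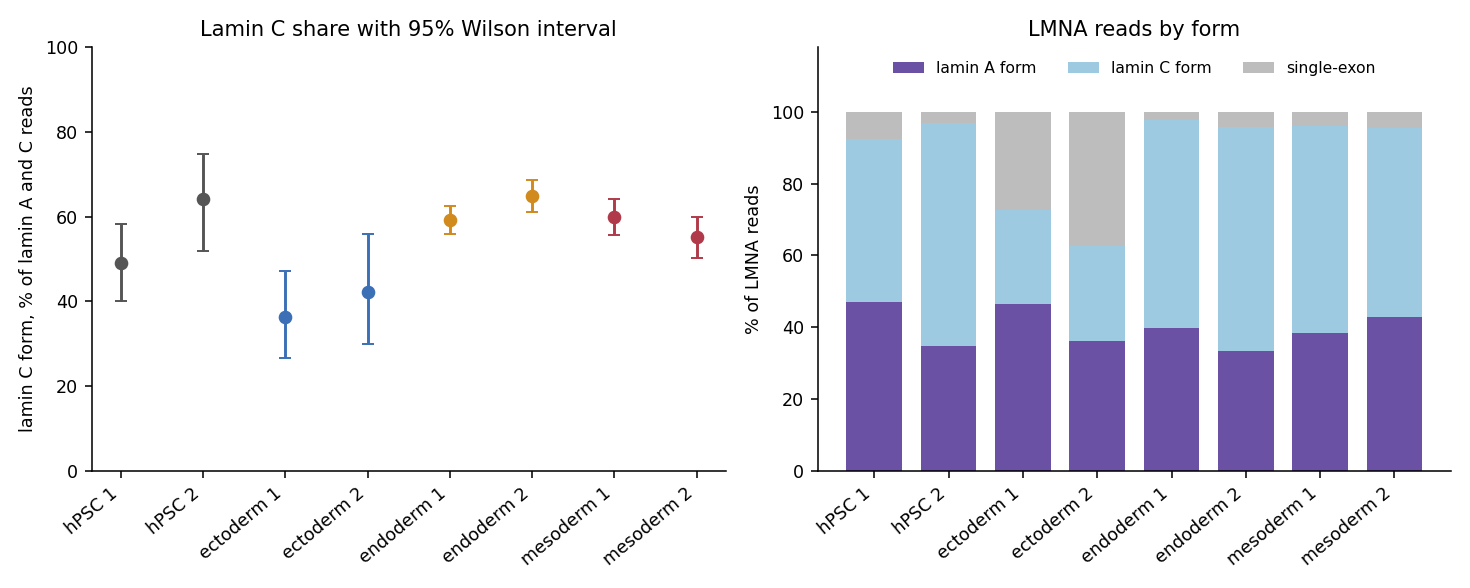
Left, the lamin C form as a percent of lamin A and lamin C reads (y axis) in each library (x axis), with its 95% Wilson interval. Right, LMNA reads of each library by form as stacked percent, where the single-exon part takes 27.3% and 37.3% in the ectoderm libraries and at most 7.44% in any other.

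Transcript by transcript, the members moved largely as their genes did. Of the 30 member transcripts, 17 matched a reference transcript, 23 held at least 10% of their gene's reads in some group, and 17 were tested. In ectoderm 10 of these 17 were lower and 1 was higher, where 22.2% of all 12440 transcripts tested were lower and 23.7% higher (45.9% called in all). In endoderm 15 were higher and 1 lower, where 13.1% of all were higher and 13.7% lower (26.8% called), and in mesoderm 15 were higher and none lower, where 16.5% were higher and 16.3% lower (32.8% called). The higher transcript in ectoderm was the 11620-nt LMNA model (log2 fold change 2.05 ± 0.81 SE, adjusted p = 0.0485). It was also called higher in endoderm (3.02 ± 0.80, adjusted p = 0.0107) and in mesoderm (2.55 ± 0.83, adjusted p = 0.0268). Both VIM transcripts, both KRT18 transcripts and the 2 main KRT8 transcripts were called in all 3 layers in the direction of their gene.

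Several members have an upstream and a downstream start. In LMNA the spliced models began at an upstream first exon (from chr1:156082590) or at a downstream one (from chr1:156114251), 1 downstream model beginning later still. The upstream group took 58.9% and 62.5% of spliced LMNA reads in hPSC, 71.3% and 76.9% for ectoderm, 69.5% and 65.3% for endoderm, and 65.1% and 67.9% for mesoderm. In VIM the form that starts at chr10:17228241 took 64.7% and 69.0% of reads in hPSC, 81.8% and 100% for ectoderm, 61.5% and 67.9% for endoderm, and 54.9% and 63.2% for mesoderm, and the other form starts at chr10:17229278. The VIM ectoderm shares rest on 22 and 10 reads, and their Wilson intervals of 61.5 to 92.7% and 72.2 to 100% overlap those of hPSC, which reach 78.5% and 82.7%. The long KRT8 form that starts upstream took 6.63% and 11.8% in hPSC, 10.2% and 16.5% in ectoderm, and 4.49% to 5.95% in endoderm and mesoderm. In KRT18 the upstream form took 1.32% to 5.50% of reads. The upstream form was longer in VIM (2154 against 1868 nt) and in KRT8 (2131 against 1794 nt for the main form). Reads in ectoderm came from longer transcripts in general, as given above, and the part of this in the start shares was not tested. Transcript choice was not called for VIM (adjusted p = 0.307, 0.956 and 0.794 in ectoderm, endoderm and mesoderm), KRT8 (0.774, 0.266 and 0.310) or KRT18 (0.673, 0.816 and 0.161). Without hPSC repeat 1, KRT8 was called in endoderm (adjusted p = 0.0395) and in mesoderm (adjusted p = 0.0346).

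**Figure D4:**
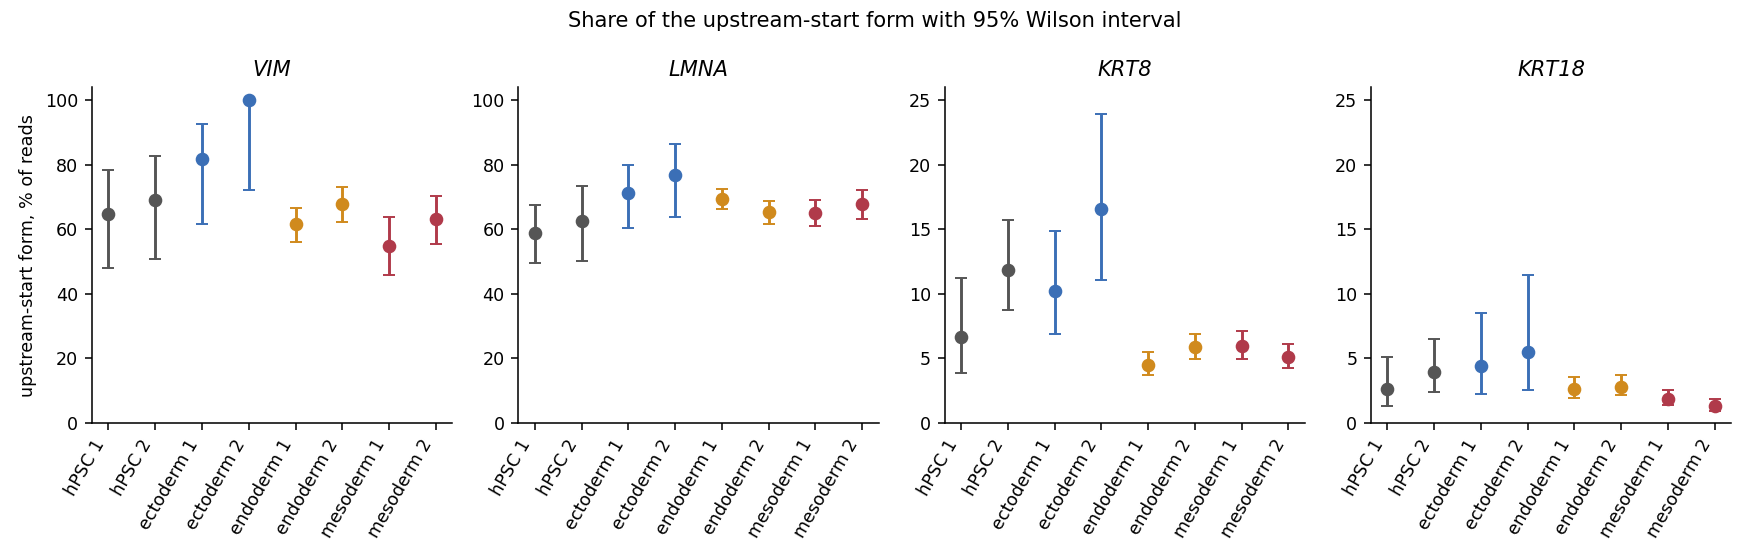
Share of reads from the upstream-start form (y axis, percent, own scale per pair of panels) in each library (x axis) with its 95% Wilson interval, of all reads of VIM, KRT8 and KRT18 and of the spliced reads of LMNA. The VIM share lies between 54.9% and 100%, that of LMNA between 58.9% and 76.9%, and those of KRT8 and KRT18 do not exceed 16.5%.

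VIM and LMNA moved in the same direction in every layer. Their promoters at the upstream starts are printed because an assembled transcript of each gene begins there. Each runs from 250 bases before to 50 after the RefSeq start (GRCh38.p14, forward strand), chr10:17227991-17228290 for VIM and chr1:156082323-156082622 for LMNA. The VIM start in RefSeq is the assembled one to the base, and that of LMNA lies 17 bases from the nearest assembled start, chr1:156082590. The LMNA model that starts there held 109 of the 551 upstream reads in endoderm repeat 1. The other upstream LMNA models start at chr1:156082692, after the printed stretch. Capitals mark GGGCGG, searched on both strands and so written CCGCCC where it lies on the reverse strand.
VIM: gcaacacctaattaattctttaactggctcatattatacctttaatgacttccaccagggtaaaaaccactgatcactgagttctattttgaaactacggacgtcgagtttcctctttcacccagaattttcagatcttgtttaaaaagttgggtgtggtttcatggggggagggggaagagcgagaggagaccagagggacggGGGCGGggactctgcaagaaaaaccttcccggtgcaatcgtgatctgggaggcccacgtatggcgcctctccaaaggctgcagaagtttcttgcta
LMNA: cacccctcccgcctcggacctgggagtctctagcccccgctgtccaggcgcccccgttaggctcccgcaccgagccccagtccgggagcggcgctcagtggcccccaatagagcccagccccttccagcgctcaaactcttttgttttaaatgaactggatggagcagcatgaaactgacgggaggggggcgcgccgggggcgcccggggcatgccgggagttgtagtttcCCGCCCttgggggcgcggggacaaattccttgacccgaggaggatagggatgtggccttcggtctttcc
Each holds GGGCGG at 1 place, 46 bases before the start in VIM and 19 before it in LMNA, and 45.0% of 35116 RefSeq promoters of the same length hold it. Neither holds TATAAA (11.5% of promoters) or TGANTCA (7.71%), also searched on both strands. VIM is 48% G and C over this stretch and LMNA 66.3%.

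Because a ratio within a library needs no library size, it sets partner against partner. The log2 ratio of KRT8 to KRT18 reads was -0.76 and -0.11 in hPSC, 0.31 and 0.22 for ectoderm, 0.48 and 0.41 for endoderm, and -0.29 and -0.21 for mesoderm. Endoderm and ectoderm lay above 0 and hPSC and mesoderm below it. The exact permutation test over the 4 groups gave p = 0.0667 (0.1 adjusted). The group means spanned 0.87, and 0.69 to 1.20 over the left-out libraries. The log2 ratio of LMNA to LMNB1 reads was 0.54 and 4.04 in hPSC, 0.18 and -1.24 for ectoderm, 5.86 and 6.80 for endoderm, and 4.78 and 3.83 for mesoderm. Endoderm was highest and ectoderm lowest, and the hPSC libraries lay from near ectoderm to within mesoderm. The exact permutation test gave p = 0.019 (0.0571 adjusted). The group means spanned 6.86, and 6.15 to 7.57 over the left-out libraries.

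**Figure D5:**
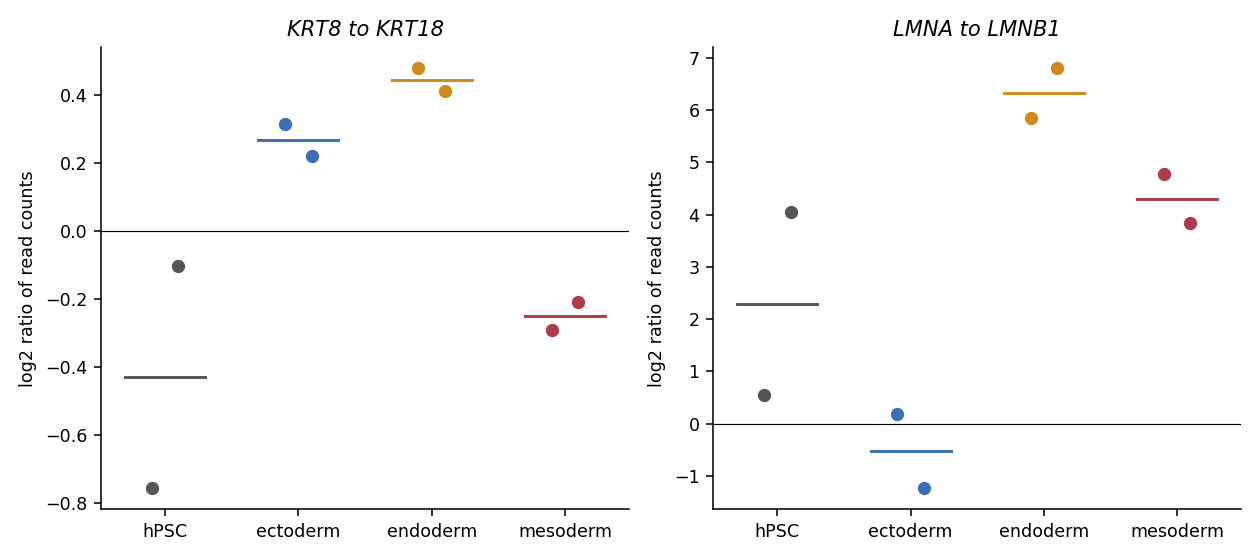
Log2 ratio of read counts (y axis) of KRT8 to KRT18 (left) and of LMNA to LMNB1 (right) in each group (x axis), with a point per library and a bar at the mean of 2. The LMNA to LMNB1 ratio lies at 5.86 and 6.80 in endoderm and at 0.18 and -1.24 in ectoderm.

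Set against each other, the layers differed most between ectoderm and the other 2. Against endoderm, 5 of the 8 tested genes were lower in ectoderm and 1 was higher, where 29.9% of all genes were lower and 33.1% higher (63.1% called in all). Against mesoderm, 6 were lower, where 17.3% of all genes were lower and 18.1% higher (35.5% called in all). The log2 difference from endoderm was -5.31 ± 0.45 for KRT8, -5.15 ± 0.39 for KRT18, -5.05 ± 0.37 for KRT19, -5.86 ± 0.39 for VIM and -4.57 ± 0.35 for LMNA (SE, adjusted p from 5.52e-08 to 3.21e-07). LMNB1 was the gene higher in ectoderm than in endoderm, by 2.29 ± 0.80 (adjusted p = 0.0202), a call lost without ectoderm repeat 2 (1.51, adjusted p = 0.159), endoderm repeat 1 (2.97, adjusted p = 0.0599) or endoderm repeat 2 (1.85, adjusted p = 0.163) and with DESeq2 (adjusted p = 0.129). Between endoderm and mesoderm 2 genes were higher in endoderm and 1 lower, where 23.2% and 23.9% of all genes were (47.1% called in all). VIM was higher in endoderm by 1.54 ± 0.31 (adjusted p = 0.00104) and LMNA by 1.03 ± 0.30 (adjusted p = 0.0118). The LMNA call was lost with library totals (0.47, adjusted p = 0.199) and without endoderm repeat 1 (0.93, adjusted p = 0.084), mesoderm repeat 1 (1.15, adjusted p = 0.0548) or mesoderm repeat 2 (0.93, adjusted p = 0.102). KRT7 was lower in endoderm, with 1 read against 100, a ratio of 113 with a 95% counting interval of 19.9 to 4516. KRT8, KRT18 and KRT19 did not pass the test between endoderm and mesoderm, with log2 differences of 0.59 ± 0.37, -0.10 ± 0.32 and 0.48 ± 0.31 (SE, adjusted p = 0.201, 0.819 and 0.218).

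Filament linkers and desmosome genes, which tie keratins and vimentin to junctions and to other filaments, were more often called higher than lower in each layer. Of 19 listed, 13 were tested. In ectoderm 9 were higher and none lower, where 23.8% of all genes were higher and 24.8% lower. In endoderm 5 were higher and 2 lower, where 13.4% and 13.7% of all genes were. In mesoderm 8 were higher and none lower, where 17% and 18.2% of all genes were. The list's median log2 fold change was 1.35 in ectoderm, 0.32 in endoderm and 1.49 in mesoderm, where the median of all genes was -0.01, -0.13 and 0.01. DSP, desmoplakin, which anchors keratins at desmosomes, had 28 and 16 reads in hPSC, 416 and 379 for ectoderm, 57 and 49 for endoderm, and 318 and 354 for mesoderm, and rose by 2.78 ± 0.33 in ectoderm and 3.77 ± 0.34 in mesoderm on the log2 scale (SE). DST, dystonin, a long cytoskeletal linker, rose by 3.39 ± 0.54 in ectoderm. Reads in ectoderm came from longer transcripts, as given above, and the mean assembled transcript length was 17279 nt for DST and 9234 nt for DSP. With the length trend removed, an alternative chosen for these lists after the data were seen, 5 linkers were higher in ectoderm and 1, PLEC, was lower. DST then stood at 2.01 (adjusted p = 0.00743) and DSP at 1.79 (adjusted p = 0.000612), and the counts in endoderm and mesoderm were the same. PKP2, plakophilin 2, had 31 and 16 reads in hPSC and 494 and 505 in mesoderm, where it rose by 4.25 ± 0.36. It was also called higher in endoderm (1.73 ± 0.36) and ectoderm (1.16 ± 0.35). The ectoderm call was lost with the length trend removed (0.84, adjusted p = 0.0617). In endoderm the highest were JUP, plakoglobin (2.21 ± 0.32), and TCHP, trichoplein (2.18 ± 0.67), and the lowest PPL, periplakin (-1.98 ± 0.63), and MACF1, a linker of actin and microtubules (-1.40 ± 0.36). In the main fit, the adjusted p of the linker changes given with an SE was at most 0.0293.

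The partners of the lamins at the inner nuclear membrane were called about as often as genes at large. Of 14 listed, 10 were tested. In ectoderm 3 were higher and 2 lower, in endoderm 1 was higher, and in mesoderm 2 were higher and 2 lower, where 48.6%, 27.1% and 35.2% of all genes were called. The medians were 0.84, -0.06 and 0.44. In ectoderm SYNE2, a nesprin, rose by 1.77 ± 0.40 and TMPO, which encodes LAP2, by 1.43 ± 0.41, whereas EMD, emerin, had a log2 fold change of -2.06 ± 0.35 and BANF1 one of -1.09 ± 0.32 (SE). In endoderm TMEM43, also called LUMA, rose by 1.74 ± 0.32. In mesoderm SUN2 rose by 2.59 ± 0.60 and LBR, the lamin B receptor, by 1.20 ± 0.30, and EMD (-1.30 ± 0.37) and BANF1 (-1.12 ± 0.34) were lower. LBR was also called higher in ectoderm (1.25 ± 0.30), and stood at 1.09 there with the length trend removed (adjusted p = 0.00857). With the length trend removed, SYNE2 (0.46, adjusted p = 0.367) and BANF1 (0.24, adjusted p = 0.549) lost their calls in ectoderm, and EMD stood at -0.96 there (adjusted p = 0.0395). In mesoderm EMD (-0.75, adjusted p = 0.130) and BANF1 (-0.24, adjusted p = 0.599) lost theirs. Prelamin A must be farnesylated, trimmed and methylated before ZMPSTE24 releases mature lamin A. All 6 genes on the list of these steps and of prelamin binding were tested, and none was higher in any layer against hPSC, where 23.8%, 13.4% and 17% of all genes were higher in ectoderm, endoderm and mesoderm. FNTB, the farnesyltransferase beta subunit, was lower in ectoderm (-1.64 ± 0.36), as was NARF, a prelamin A binding protein (-0.97 ± 0.33). ICMT, the methyltransferase, was lower in endoderm (-1.83 ± 0.58) and NARF in mesoderm (-1.46 ± 0.35). ICMT had 119 and 19 reads in the hPSC repeats, another gene at which these libraries differ.

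For each of 6 members the 3 tested genes with the most similar pattern were taken by Pearson's r of log2(CPM + 1) over the 8 libraries, which fall into 4 groups and share their depth, so r is a description. KRT8 was most like ANXA2 (r = 0.996), CDC42EP1 (0.994) and SIRT2 (0.992), and KRT19 most like LMF2 (0.996), HDAC10 (0.990) and CDC42EP1 (0.987). ANXA2, annexin A2, had 168 and 212 CPM in hPSC, 81.3 and 68.2 for ectoderm, 1380 and 1158 for endoderm, and 1358 and 1354 for mesoderm. As for KRT8, ectoderm was lowest, and endoderm and mesoderm lay above hPSC and overlapped each other. VIM was most like CYB561 (0.990), FBLIM1 (0.986) and GALNS (0.986), and LMNA most like ALDH1A3 (0.992), EPS8L2 (0.989) and SLC66A3 (0.989). NES was most like ZNF16 (0.933), MRAS (0.930) and ACBD4 (0.924). LMNB1 was most like MCU (0.980), NUDT4 (0.971) and APP (0.966), and these had 94.4 and 16.0, 112 and 23.1, and 104 and 32.0 CPM in the hPSC repeats, the split seen in LMNB1. Among the members themselves, KRT8, KRT18, KRT19, VIM and LMNA correlated with each other at 0.937 to 0.980.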

How the data were processed

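PolyA RNA of 8 H1 libraries was read as long molecules on Sequel II, per the labels. The submitters' processing notes name minimap2, StringTie and GRCh38 (hg38), with no version. The authors deposited whole raw read counts per assembled transcript. The endoderm columns are recorded under the unit of expected counts for a formal reason, but these deposited values are whole counts too, and nothing was rounded. The deposited CPM tables were not used.

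A gene count is the sum over transcripts carrying its name in the assembly, and CPM uses the library total. Counts were tested with edgeR 4.0.16 (R 4.3.3): TMM, filterByExpr at a minimum count of 10, 1 quasi-likelihood fit over 8 libraries, diffSpliceDGE for transcript choice, two-sided, Benjamini-Hochberg over all features at 0.05. The SE is the log2 fold change over the square root of F. DESeq2 1.42.0 was an alternative. The tests were checked on simulated data. Repeat numbers did not pair the libraries. Members and lists were chosen with earlier results of these data known. Named list genes are the 2 highest and 2 lowest called per layer, and some of them are also given in another layer. Some sequences are not reported here.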

Additional observations from a re-analysis of the deposited data

How the results depend on the processing

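Of 48 tests of a member between groups, 33 were called. Under the alternatives run, 28 of the 33 kept call and direction under each, and 5 lost the call under at least 1 (KRT7 in ectoderm and in endoderm, KRT19 in ectoderm, LMNA between endoderm and mesoderm, LMNB1 between ectoderm and endoderm). Of these, 2 changed sign: KRT7 in ectoderm to 0.057 without hPSC repeat 1 (-2.56 to 0.057 over the left-out libraries) and KRT19 in ectoderm to 0.017 with the length trend removed. Of the tests not called, 8 gained a call under at least 1 alternative and 7 changed sign. KRT18 between endoderm and mesoderm became 0.036 without endoderm repeat 1 (-0.25 to 0.036), and KRT19 became -0.093 with library totals and -0.12 with the length trend removed. NES between ectoderm and endoderm became 0.73 with library totals, 0.13 without the filter, 0.036 in the 4 libraries alone, 0.011 with all transcripts listed under the gene, 0.29 without ectoderm repeat 2 and 0.88 without endoderm repeat 2 (-0.60 to 0.88), and between endoderm and mesoderm it became -0.039 with library totals and -0.38 without endoderm repeat 2 (-0.38 to 1.21). LMNB1 against hPSC became -0.45 (ectoderm, without hPSC repeat 2), -0.32 (ectoderm, without ectoderm repeat 2), 1.42 (endoderm, without hPSC repeat 1) and 2.32 (mesoderm, without hPSC repeat 1), with ranges of -0.45 to 3.69, -2.72 to 1.42 and -1.82 to 2.32 over the left-out libraries.

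Counts over all features that moved by more than 1.5 times were as follows. DESeq2's Wald test called 3356, 1836 and 2315 genes in ectoderm, endoderm and mesoderm against hPSC (5275, 2943 and 3815 by edgeR), 2015 between ectoderm and mesoderm (3846), and 2899, 1606 and 2133 transcripts (5711, 3331 and 4080). The 4 libraries alone gave 2470 genes in mesoderm, a minimum count of 3 gave 8709 transcripts in ectoderm, and the replicate block gave 98 genes with transcript choice in ectoderm (148). The block moved no other count by over 1.5 times, and deviations of same-numbered repeats correlated at -0.03 to 0.13 between groups. Leaving out a library gave 3348 to 5761, 1475 to 3864 and 1963 to 4872 genes against hPSC, 5230 to 5649, 1847 to 2398 and 3334 to 3712 between ectoderm and endoderm, ectoderm and mesoderm, and endoderm and mesoderm, 3535 to 6593, 1557 to 4367 and 2147 to 5616 transcripts, and 11 to 279, 31 to 215 and 46 to 287 genes with transcript choice. The spread of group means was 19.8 to 25.9 percentage points for the lamin C share, 0.69 to 1.20 for KRT8 to KRT18 and 6.15 to 7.57 for LMNA to LMNB1 (log2). Among listed genes, BANF1 in ectoderm changed sign to 0.24 with the length trend removed. A lone library is assumed to vary like the other groups. The cause of these shifts was not tested. Depth limits KRT7, KRT10, KRT17 and NES.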
